A study of Homo sapiens with 29 samples.

Results

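The 7 genes described here encode the cyclin-dependent kinase (CDK) inhibitors of human cells: the CIP/KIP family, CDKN1A (p21), CDKN1B (p27) and CDKN1C (p57), and the INK4 family, CDKN2A (p16INK4a), CDKN2B (p15INK4b), CDKN2C (p18INK4c) and CDKN2D (p19INK4d). They were taken by symbol from 28266 genes, as complete families and not by their measured values, and all 7 passed the filter on low counts that left 13136 genes for testing. RNA sequencing was done on IMR90 ER:RAS cells, which are IMR90 human lung fibroblasts (an established line) infected with a retrovirus carrying RAS fused to the hormone-binding part of the estrogen receptor. By their labels all 3 groups carry this fusion, and all were transfected with siRNA. In DMSO_siNT the cells received the solvent DMSO and non-targeting siRNA and kept growing. In 4OHT_siNT they received 4-hydroxytamoxifen (4OHT), which switches RAS on and drives oncogene-induced senescence, with the same non-targeting siRNAs. In 4OHT_siSMARCA4 they received 4OHT and siRNA against SMARCA4 (BRG1), an ATPase of the SWI/SNF chromatin remodelling complex. Samples were labelled as day 7, each group has 6 libraries, and each arm used 2 siRNAs, numbered 2 and 4 (number 2 of siNT and number 2 of siSMARCA4 are unrelated molecules). Libraries are named by siRNA number and set, a number from 1 to 3 with the letters V or VM, whose meaning is not given in the sources used here.

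CDK inhibitors hold cells out of division by binding the kinases that phosphorylate the retinoblastoma protein. INK4 proteins bind CDK4 and CDK6 alone and keep them from pairing with D-type cyclins, while CIP/KIP proteins bind whole cyclin-CDK complexes and block cyclin E and cyclin A complexes of CDK2. In oncogene-induced senescence of fibroblasts, CDKN1A and the CDKN2A-CDKN2B locus, which Polycomb proteins keep silent in growing cells, are the best known contributors to the arrest.

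Summed counts per library ran from 9657309 to 18039313, so that a library's CDKN1A level rested on 5871 to 34255 counts but its CDKN2C level in the 4OHT groups on 2 to 19. Levels are in CPM, the counts of a gene scaled to its library by TMM, written as mean ± SD over the 6 libraries of a group, and fold changes as fitted log2 differences ± SE. The targeted gene, SMARCA4, stood at 217 ± 15.3 CPM in DMSO_siNT, 301 ± 20.9 in 4OHT_siNT and 99.0 ± 27.6 in 4OHT_siSMARCA4, and the libraries of the last group (70.4 to 141 CPM) did not overlap the others. All 14 fibroblast markers passed the filter, and 1 of 8 epithelial (KRT19), 3 of 6 endothelial and 0 of 8 immune markers did, with KRT5, SFTPC, SCGB1A1, NKG7 and GNLY at 0 in every library. The summed fibroblast markers were between 22559 and 48156 CPM in DMSO_siNT, between 29999 and 46530 CPM in 4OHT_siNT and between 19702 and 31636 CPM in 4OHT_siSMARCA4. Of these markers 6 were called lower and 2 higher with 4OHT, against 28.9% and 23.9% of all genes. After knockdown 7 were lower, against 5.65% of all genes. The part of this in the results on CDK inhibitors was not tested. The summed epithelial markers were 34.1 to 52.9 CPM in DMSO_siNT, nearly all KRT19, and at most 2.01 CPM in the 4OHT groups. The summed endothelial markers were 4.59 to 11.9 CPM in DMSO_siNT, 9.65 to 16.3 in 4OHT_siNT, where 2 of the 3 tested were called higher, and 9.08 to 13.4 after knockdown. In DMSO_siNT, library 4-2V stood apart in the genes of the switch itself: ESR1 was at 29.5 CPM against 1034 to 1316 in the other 5, and HRAS at 436 against 2165 to 2852. These levels go against its label as a library of ER:RAS cells. Several differences of CDKN1A, CDKN1C and CDKN2A are given with and without it. Group means, levels per kilobase, shares, gene lists and correlations are given only with it. Nothing in the labels says that the libraries of a group came from separate cultures, so the spread between them may be technical. In bulk RNA, fewer cells expressing a gene and less RNA per cell cannot be told apart.

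On the genome (GRCh38, GENCODE v44), CDKN2A lies on chromosome 9 at chr9:21967752-21995301 and CDKN2B beside it at chr9:22002903-22009305, both on the minus strand. CDKN1A is at chr6:36676460-36687337 (plus strand), CDKN1B at chr12:12685498-12722369 (plus), CDKN1C at chr11:2883213-2885775 (minus), CDKN2C at chr1:50960745-50974634 (plus) and CDKN2D at chr19:10566460-10569059 (minus). The antisense transcript CDKN2B-AS1 (chr9:21994139-22128103, plus) overlaps CDKN2B and the 5′ end of CDKN2A, and a second annotated antisense gene with no symbol (chr9:21802636-22029594) spans both genes whole. CDKN1A, CDKN1B and CDKN2C also have an overlapping gene on the other strand. Whether counting used strand is not stated, so reads from such partners cannot be told apart from those of the members. CDKN2B-AS1 itself held 0.490 ± 0.282, 0.426 ± 0.152 and 0.368 ± 0.210 CPM in the 3 groups and did not pass the filter, and the longer antisense gene has no row under its identifier. CDKN2A counts pool transcripts from 2 start sites, an upstream one for p14ARF and a downstream one for p16INK4a, which cannot be separated in these counts.

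The 250 bases upstream of 4 annotated starts are shown because the 3 genes that use them, CDKN1A, CDKN2B and CDKN2A, were higher in senescent cells and lower after SMARCA4 knockdown. They come from RefSeq on GRCh38.p14, are written 5′ to 3′ on the gene's own strand and end at the base before the start. Capitals mark GGGCGG, the core of the GC box bound by SP1, or its reverse complement CCGCCC, with overlapping copies joined.
CDKN1A (chr6:36678464-36678713, plus strand): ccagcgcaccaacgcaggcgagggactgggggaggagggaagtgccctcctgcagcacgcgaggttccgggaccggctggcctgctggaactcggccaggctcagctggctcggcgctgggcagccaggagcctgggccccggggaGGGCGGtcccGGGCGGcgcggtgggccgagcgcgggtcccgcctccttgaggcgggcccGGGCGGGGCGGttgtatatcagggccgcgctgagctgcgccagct
CDKN2B (chr9:22009306-22009555, minus strand): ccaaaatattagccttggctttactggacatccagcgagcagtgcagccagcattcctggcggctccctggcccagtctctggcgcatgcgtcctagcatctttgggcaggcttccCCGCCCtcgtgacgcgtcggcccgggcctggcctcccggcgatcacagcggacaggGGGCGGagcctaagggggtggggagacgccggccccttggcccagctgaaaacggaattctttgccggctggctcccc
CDKN2A, upstream start of p14ARF (chr9:21995325-21995574, minus strand): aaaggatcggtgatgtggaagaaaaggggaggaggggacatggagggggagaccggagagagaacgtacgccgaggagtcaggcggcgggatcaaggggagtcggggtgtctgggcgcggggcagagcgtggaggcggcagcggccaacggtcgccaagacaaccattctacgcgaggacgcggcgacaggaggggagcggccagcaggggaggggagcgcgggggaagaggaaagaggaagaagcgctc
CDKN2A, downstream start of p16INK4a (chr9:21974858-21975107, minus strand): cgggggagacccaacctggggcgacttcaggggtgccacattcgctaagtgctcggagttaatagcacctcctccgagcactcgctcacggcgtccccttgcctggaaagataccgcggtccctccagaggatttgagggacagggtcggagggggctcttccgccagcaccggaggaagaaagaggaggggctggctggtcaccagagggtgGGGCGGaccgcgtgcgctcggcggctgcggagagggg
The CDKN1A window held 4 copies of the GC box core, that of CDKN2B 2, that of the p16INK4a start 1 and that of the p14ARF start 0. Members that did not share the pattern held it too, with 5, 1 and 0 copies at the 3 starts of CDKN2C, 2 at CDKN2D and 1 at CDKN1B. At least 1 copy was in 42.5% of 34943 promoter windows of the same length. None of the 4 windows held TGANTCA (AP-1, in 6.59% of all windows), TTTNGCGC (E2F, 1.49%), CACGTG (E-box, 6.32%) or CCAAT (32.0%), searched on both strands. Of the windows not shown, CDKN1B, CDKN2D and 1 of CDKN2C held CCAAT, and 2 of CDKN2C held CACGTG. The table had windows for 6 of the 7 members, and the windows of CDKN1B, CDKN2C and CDKN2D are not shown.

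The comparison of 4OHT_siNT with DMSO_siNT asks how the inhibitor genes differ between senescent and growing cells. CDKN2B, CDKN1A and CDKN2A were higher, CDKN2C, CDKN1C and CDKN1B were lower, and CDKN2D was not called, where a call is an adjusted p under 0.05 over all 13136 genes. In this comparison 23.9% of all genes were called higher and 28.9% lower. Each family had members that rose and members that fell.

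Among the CIP/KIP genes, CDKN1A, whose p21 protein blocks CDK2 in arrested cells, had 702 CPM in its lowest DMSO_siNT library, a median of 961 and a highest value of 1046. In 4OHT_siNT the lowest library had 2131 CPM, the median was 2298 and the highest was 2430. The groups did not overlap, and CDKN1A was 2.45-fold higher (log2 1.29 ± 0.10, adjusted p = 4.73e-09). CDKN1B, an inhibitor of cyclin E-CDK2 complexes in quiescent cells, went the other way, from 28.3 ± 2.49 to 12.6 ± 2.15 CPM. Its 4OHT_siNT libraries (10.03 to 15.6 CPM) all lay below its DMSO_siNT libraries (26.2 to 32.99 CPM), and the gene was 2.24-fold lower (log2 -1.16 ± 0.11, adjusted p = 6.58e-08).

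CDKN1C, an imprinted gene with a growth-restraining role in development, was the member most marked by 1 library. In DMSO_siNT it had 32.3 CPM in library 4-2V and 4.00 to 7.70 CPM in the other 5. The 4OHT_siNT libraries ranged from 0.813 to 2.60 CPM (11 to 35 counts), below every DMSO_siNT library. The fitted difference was -2.33 ± 0.47 on the log2 scale (adjusted p = 0.000327) with all libraries and -1.50 ± 0.25 (adjusted p = 3.37e-05) without library 4-2V, so the direction and call held and the size did not. The same library had the lowest CDKN1A level of its group, and without it the CDKN1A difference was 1.23 ± 0.08.

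**Figure D1:**
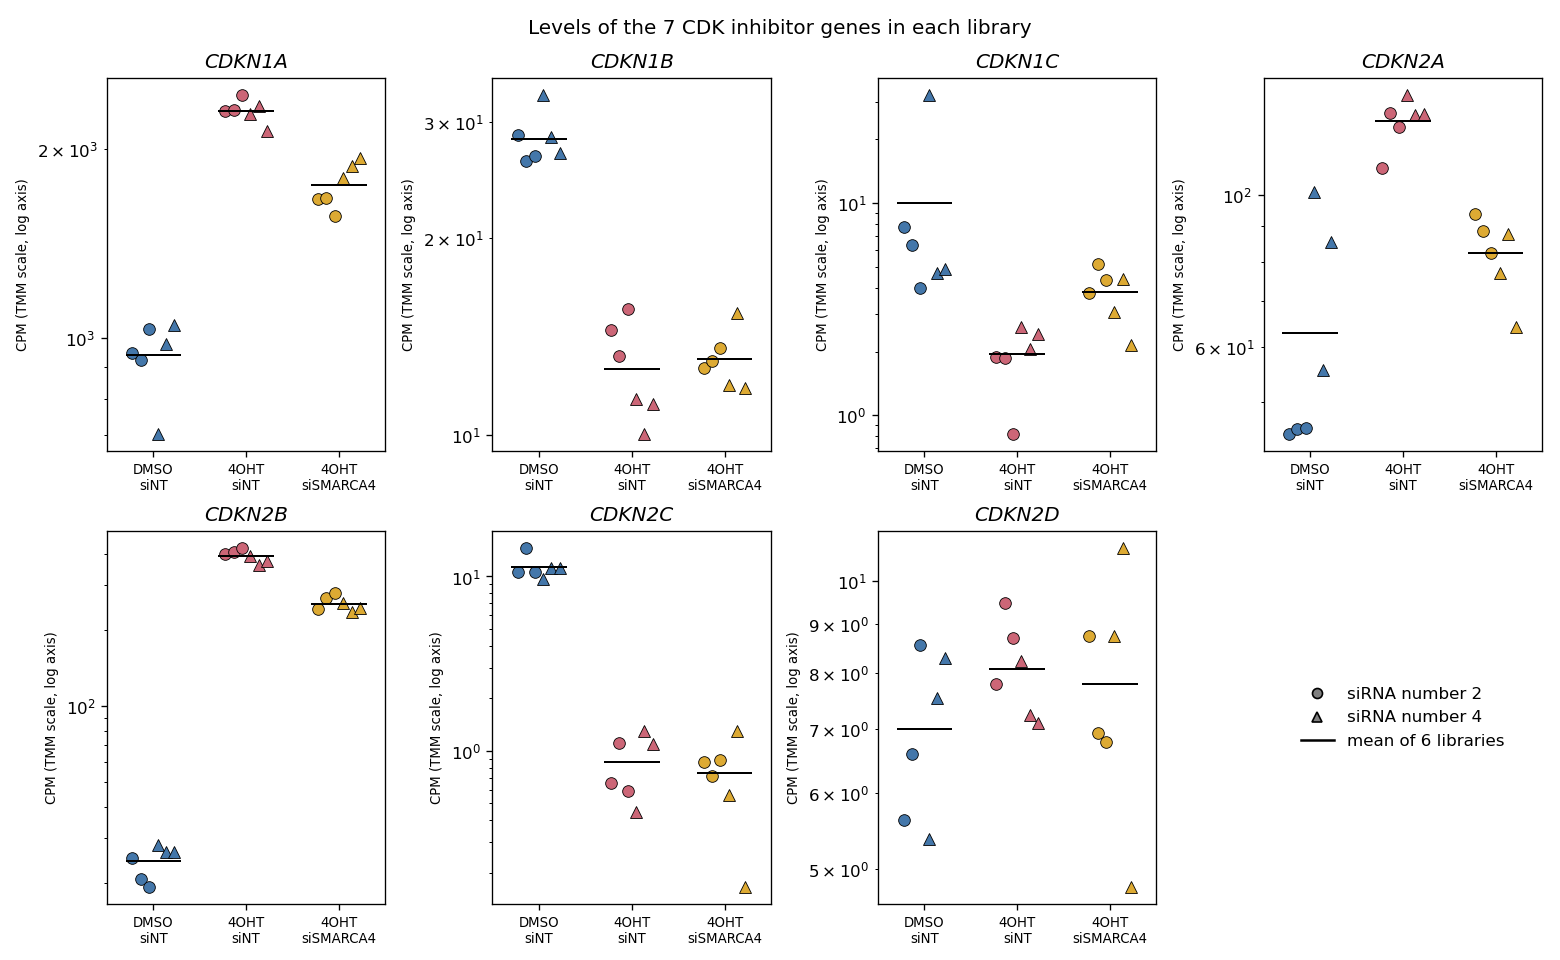
Level of each CDK inhibitor gene in each library, as CPM on the TMM scale (log axes of different range), for the 3 groups; circles are siRNA number 2, triangles siRNA number 4 and lines the mean of 6 libraries. CDKN2B shows the widest gap between DMSO_siNT (19.2 to 28.3 CPM) and 4OHT_siNT (359 to 419 CPM) of the genes that rose, and the lone triangle at 32.3 CPM for CDKN1C is library 4-2V.

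Among the INK4 genes, CDKN2B, whose p15INK4b protein is best known as a mediator of arrest by TGF-beta, changed most. Its DMSO_siNT libraries had 19.2, 25.8 and 28.3 CPM (lowest, median and highest) and its 4OHT_siNT libraries 359, 395 and 419 CPM. The rise was 16.0-fold (log2 4.00 ± 0.11, adjusted p = 2.48e-15), with no overlap. CDKN2A, the neighbouring gene, rose 2.03-fold (log2 1.02 ± 0.18, adjusted p = 9.28e-05), from 63.0 ± 24.2 to 128 ± 10.2 CPM. Its DMSO_siNT libraries spread widely, with 44.8 to 55.6 CPM in 4 of them, 85.3 in 4-3VM and 101 in 4-2V, and the highest stayed below the lowest 4OHT_siNT library (109 CPM). Without 4-2V the CDKN2A difference was 1.21 ± 0.15 (adjusted p = 5.25e-07).

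CDKN2C, whose p18INK4c protein is expressed in dividing cells under E2F control, fell furthest of all members. It had 9.68, 10.9 and 14.5 CPM (lowest, median and highest) in DMSO_siNT and 0.445, 0.875 and 1.30 CPM in 4OHT_siNT, where single libraries held 6 to 19 counts. The fitted difference was 12.9-fold (log2 -3.69 ± 0.28, adjusted p = 2.16e-09). CDKN2D, the remaining INK4 gene, had 7.0 ± 1.35 and 8.09 ± 0.909 CPM in the 2 groups, which overlapped (log2 0.20 ± 0.17, adjusted p = 0.328).

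The second comparison, 4OHT_siSMARCA4 against 4OHT_siNT, asks how loss of SMARCA4 changes these genes in cells that have RAS switched on. The 3 members that were higher in senescent cells were lower after knockdown, CDKN2B, CDKN2A and CDKN1A, and no member was called higher. Over all genes 5.65% were called lower and 4.99% higher. The 4OHT_siNT libraries enter both comparisons, so a chance deviation in them would move the differences in opposite directions.

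CDKN2B had 234, 249 and 280 CPM (lowest, median and highest) after knockdown, below all 4OHT_siNT libraries (log2 -0.63 ± 0.10, adjusted p = 0.000453). CDKN2A had 64.2, 85.1 and 93.9 CPM, also without overlap (log2 -0.64 ± 0.18, adjusted p = 0.0271). CDKN1A had 1564, 1732 and 1932 CPM against a lowest 4OHT_siNT library of 2131 (log2 -0.39 ± 0.10, adjusted p = 0.0193). On the linear scale these are levels 1.54-fold, 1.55-fold and 1.31-fold lower, against 3.04-fold lower for SMARCA4 itself (log2 -1.61 ± 0.14, adjusted p = 1.30e-06). In the fit of the 3 groups, the CDKN2A and CDKN1A calls depended on the library of siSMARCA4_2 that no sample label matched by set. Without it, their adjusted p were 0.0542 and 0.0501 at log2 differences of -0.65 and -0.37. CDKN2A also missed the threshold there without 4OHT_siNT 4-1VM (adjusted p = 0.0589) and without 4OHT_siSMARCA4 4-3V (adjusted p = 0.0571). Library DMSO_siNT 4-2V belongs to neither group but enters the estimate of the spread. Without it both genes were called (adjusted p = 0.00189 for CDKN2A and 0.000649 for CDKN1A). A fit of the 2 groups alone also called both (adjusted p = 0.000130 and 0.00108), and did so with each library left out in turn.

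CDKN1C had a higher mean after knockdown, at 3.83 ± 1.08 against 1.94 ± 0.62 CPM. Of its 6 knockdown libraries, 5 (3.08 to 5.18 CPM) exceeded the highest 4OHT_siNT library (2.60 CPM), and 4-3V had 2.14 CPM. With all 18 libraries in the fit the difference was 0.97 ± 0.47 (adjusted p = 0.206), not a call. Without DMSO_siNT 4-2V, which belongs to neither group but enters the estimate of the spread, it was 0.96 ± 0.25 (adjusted p = 0.00778). A fit of the 2 groups alone also called it (0.97, adjusted p = 0.00972), and did so with each of the 12 libraries left out in turn (0.82 to 1.09). By siRNA number it was called with neither pair, at 1.53 ± 0.63 (adjusted p = 0.165) for siSMARCA4_2 against siNT 2 and 0.43 ± 0.61 (adjusted p = 0.783) for siSMARCA4_4 against siNT 4. CDKN1B (log2 0.05 ± 0.11, adjusted p = 0.852), CDKN2C (-0.23 ± 0.33, adjusted p = 0.728) and CDKN2D (-0.05 ± 0.17, adjusted p = 0.891) were not called. Their knockdown means were 13.1 ± 1.32, 0.749 ± 0.377 and 7.80 ± 2.08 CPM. CDKN2C rested on 2 to 15 counts per knockdown library, and a difference as large as that of CDKN2B would be under 2 of its SE.

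**Figure D2:**
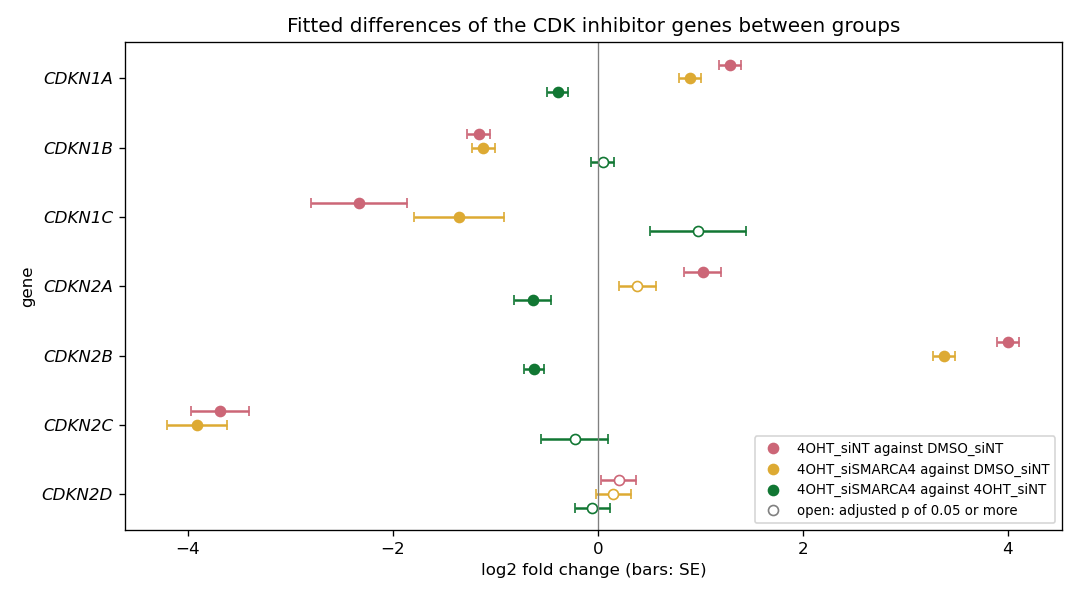
Fitted log2 fold change (x axis, bars are SE) of each member in the 3 comparisons, with filled points for an adjusted p under 0.05. CDKN2B and CDKN2C lie furthest from 0 in both comparisons with DMSO_siNT, at 4.00 and -3.69 without knockdown and 3.38 and -3.91 with it.

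Set against growing cells, 5 members were called in 4OHT_siSMARCA4, 2 higher and 3 lower. CDKN2B was 10.4-fold higher than in DMSO_siNT (log2 3.38 ± 0.11, adjusted p = 1.49e-14) and CDKN1A 1.87-fold higher (log2 0.90 ± 0.10, adjusted p = 5.00e-07). CDKN2C (log2 -3.91 ± 0.29, adjusted p = 1.13e-09), CDKN1B (-1.12 ± 0.11, adjusted p = 9.77e-08) and CDKN1C (-1.36 ± 0.44, adjusted p = 0.0150) were lower, and CDKN2D was not called (0.15 ± 0.17, adjusted p = 0.484). Over all genes 23.3% were called higher and 27.3% lower. CDKN2A was not called, at 0.39 ± 0.18 (adjusted p = 0.0794), and its libraries of 64.2 to 93.9 CPM lay within the DMSO_siNT range of 44.8 to 101 CPM. The calls of CDKN2A and CDKN1C depended on the DMSO_siNT libraries used. Against siNT 2 alone CDKN2A was called higher (0.86, adjusted p = 0.000207), and against siNT 4 alone it stood at 0.03 (adjusted p = 0.867). CDKN1C was called lower against siNT 4 alone (-1.84, adjusted p = 0.00375), the arm that holds library 4-2V, and not against siNT 2 alone (-0.66, adjusted p = 0.289). Without library 4-2V CDKN2A was called higher (0.56 ± 0.14, adjusted p = 0.00226) and CDKN1C was no longer called lower (-0.54 ± 0.24, adjusted p = 0.0605). CDKN2A was also called without DMSO_siNT 4-3VM (adjusted p = 0.0281) and without 4OHT_siSMARCA4 4-3V (adjusted p = 0.0491).

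Levels of different genes were set side by side as CPM per kilobase of merged exon length. CDKN1A was the highest member in each group, at 313 ± 41.7 CPM per kilobase in DMSO_siNT, 766 ± 32.5 in 4OHT_siNT and 584 ± 47.4 in 4OHT_siSMARCA4. It made up 89.0% ± 4.20 (SD) of the summed level of the 7 genes in DMSO_siNT, 84.7% ± 0.599 in 4OHT_siNT and 86.2% ± 1.64 in 4OHT_siSMARCA4. In DMSO_siNT, CDKN2A followed at 16.2 ± 6.23, and the other 5 genes lay between 3.06 and 6.10 CPM per kilobase with ranges that overlapped from each to the next. In 4OHT_siNT the order was CDKN1A, CDKN2B (97.8 ± 5.43), CDKN2A (32.9 ± 2.62), CDKN2D (5.38 ± 0.604), CDKN1B (1.37 ± 0.232), CDKN1C (0.782 ± 0.252) and CDKN2C (0.287 ± 0.114). By merged exon length only the last pair overlapped. The 4OHT_siSMARCA4 order differed in the places of CDKN1C (1.54 ± 0.436) and CDKN1B (1.41 ± 0.142), which overlapped each other.

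The summed INK4 level was 30.7 ± 6.52 CPM per kilobase in DMSO_siNT, 136 ± 5.72 in 4OHT_siNT and 89.9 ± 5.34 in 4OHT_siSMARCA4, and the groups did not overlap. The ratio of CDKN2B to CDKN2A per kilobase was 0.405 ± 0.102 in DMSO_siNT, 2.99 ± 0.348 in 4OHT_siNT and 3.03 ± 0.454 in 4OHT_siSMARCA4. The ratios of the last 2 groups (2.67 to 3.55 and 2.49 to 3.68) overlapped fully, while all DMSO_siNT libraries (0.272 to 0.542) lay below them. These ratios depend on the length used, since merged exons give CDKN2A 3885 bases and its canonical transcript has 978. With canonical lengths CDKN2A stood above CDKN2B in all groups, at 131 ± 10.4 against 102 ± 5.64 in 4OHT_siNT, and CDKN1A remained the highest. The lower places depended on the length too. In DMSO_siNT CDKN1B, last by merged exons, came next after CDKN2A at 11.8 ± 1.03, and CDKN2C followed at 11.3 ± 1.67. In 4OHT_siNT CDKN2D (5.68 ± 0.638) and CDKN1B (5.24 ± 0.892) overlapped with canonical lengths.

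**Figure D3:**
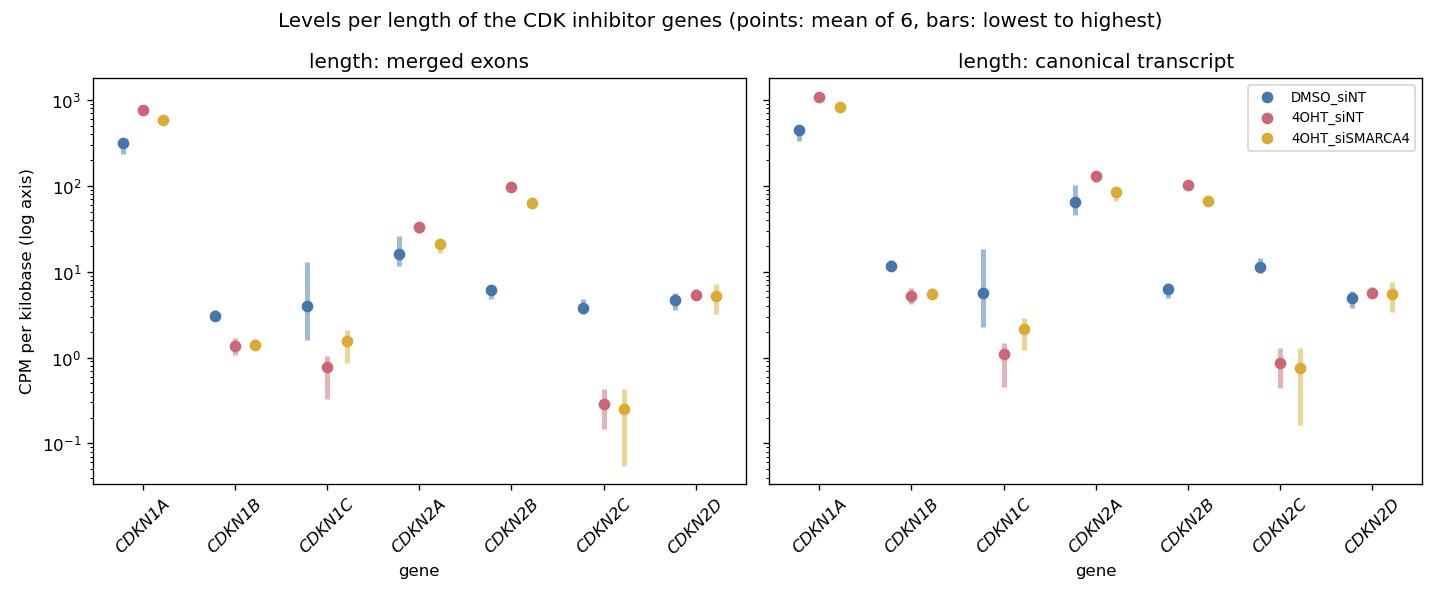
Level per length of each member (CPM per kilobase, log axis) in the 3 groups, with length as merged exons (left) or the canonical transcript (right); points are means of 6 libraries and bars run from the lowest to the highest library. CDKN1A is highest in both panels, and CDKN2A and CDKN2B change places between them in the 4OHT groups.

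Each siRNA was also read on its own, in a fit with 6 levels (group by siRNA number) over 13659 genes. SMARCA4 fell with both, by 1.56 ± 0.21 on the log2 scale for siSMARCA4_2 against siNT 2 and by 1.66 ± 0.21 for siSMARCA4_4 against siNT 4. These pairs share no library. CDKN2B was lower in both, at -0.63 ± 0.12 (adjusted p = 0.00307) and -0.63 ± 0.12 (adjusted p = 0.00872). CDKN2A was at -0.47 ± 0.17 (adjusted p = 0.113) with number 2 and -0.82 ± 0.17 (adjusted p = 0.0165) with number 4. CDKN1A was at -0.52 ± 0.14 (adjusted p = 0.0369) and -0.28 ± 0.14 (adjusted p = 0.325). Thus each gene kept its sign with both siRNAs, CDKN2B was called with both, and CDKN2A and CDKN1A were each called with 1. Library DMSO_siNT 4-2V is in neither pair but enters the estimate of the spread, and the pairs were not fitted without it.

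The siRNAs themselves were then compared within each group. Between siSMARCA4_2 and siSMARCA4_4 no member was called with edgeR (0.00732% of all genes were) or with DESeq2 (0.389% of genes). With all libraries no member had an unadjusted p under 0.05, as 878 of the 13659 genes tested had. The CDKN1A levels of the 3 libraries of each siRNA did not overlap, at 1564 to 1668 CPM for number 2 and 1795 to 1932 for number 4, yet the fitted difference of -0.18 ± 0.14 had an adjusted p of 0.889. Without DMSO_siNT 4-2V, which enters the estimate of the spread, the CDKN1A difference was -0.20 ± 0.09 (edgeR, unadjusted p = 0.0353, adjusted p = 0.294). Between siNT 2 and siNT 4 in 4OHT cells no member was called with edgeR (0.0732% of all genes) or DESeq2 (1.66%). CDKN1B alone of the members had an unadjusted p under 0.05 there, as did 1447 of the 13659 genes tested. Its levels were 13.2 to 15.6 CPM with siNT 2 and 10.03 to 11.4 CPM with siNT 4 (log2 0.41 ± 0.13, adjusted p = 0.261).

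Between siNT 2 and siNT 4 in DMSO, CDKN2A had 44.8 to 45.8 CPM with number 2 and 55.6 to 101 CPM with number 4, and CDKN2B 19.2 to 25.0 against 26.5 to 28.3 CPM. Neither was called with edgeR (log2 -0.83 ± 0.17, adjusted p = 0.0625, and -0.33 ± 0.12, adjusted p = 0.0970). These were the 2 members with an unadjusted p under 0.05, as were 3872 of the 13659 genes tested. DESeq2 called both (adjusted p = 0.00176 and 0.0263), as it did 15.7% of all genes with an adjusted p, against 0.0512% with edgeR. Leaving out DMSO_siNT 4-2VM (adjusted p = 0.00173) or 4-3VM (adjusted p = 0.0406) brought a call of CDKN2A with edgeR, and the former also one of CDKN1C (adjusted p = 0.0289), with library 4-2V then 1 of 2 libraries of siNT 4. Without library 4-2V itself neither was called, CDKN2A at -0.64 ± 0.15 (adjusted p = 0.0846) and CDKN1C at 0.32 ± 0.32 (adjusted p = 0.609). The response to 4OHT with siNT 2 minus that with siNT 4 was 0.70 ± 0.24 for CDKN2A (adjusted p = 0.127), 0.45 ± 0.17 for CDKN2B (adjusted p = 0.137) and 0.53 ± 0.19 for CDKN1B (adjusted p = 0.130). These 3 members had an unadjusted p under 0.05, as did 3258 of all genes tested, but none was called with edgeR (0% of genes were), while DESeq2 called CDKN2B (adjusted p = 0.0426) among 5.9% of genes. Without DMSO_siNT 4-2VM, edgeR called CDKN2A (0.90, adjusted p = 0.00876), and without 4-2V it did not (0.51 ± 0.20, adjusted p = 0.147). The shares of all genes called in these fits with a library left out are not given here. The member calls in them therefore cannot be set against such a share.

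**Figure D4:**
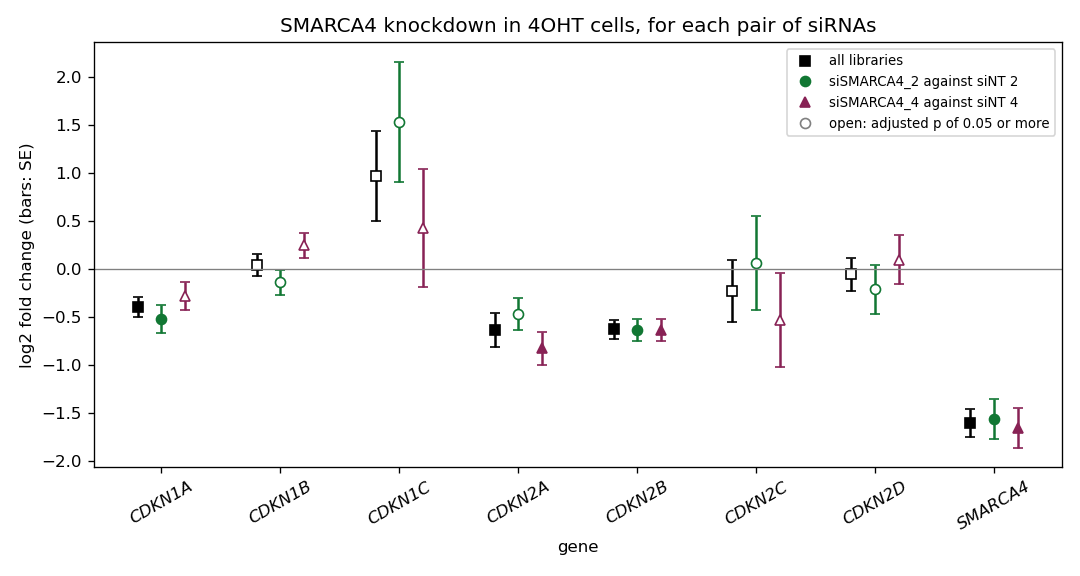
Fitted log2 difference between 4OHT_siSMARCA4 and 4OHT_siNT (y axis, bars are SE) for each member and for SMARCA4, with all libraries and for each pair of equal siRNA number; filled points have an adjusted p under 0.05. CDKN2B sits at -0.63 in all 3 estimates, while CDKN1A and CDKN2A are filled for only 1 of the siRNA pairs.

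Set letters were not spread evenly over the groups, since all 4OHT_siNT libraries are VM while DMSO_siNT has 3 V and 3 VM libraries and 4OHT_siSMARCA4 has 3 V, 2 VM and 1 that carries a VM set in the count table but matches no title, which was kept out of the comparisons of sets. Between V and VM no member was called in DMSO_siNT (0.324% of 13887 genes were) or in 4OHT_siSMARCA4 (0.101%), nor in the difference between these (0.0864%). The largest V minus VM value was that of CDKN1C in DMSO_siNT (1.72 ± 0.48, adjusted p = 0.130), which was 0.62 ± 0.30 (adjusted p = 0.372) without library 4-2V. In 2 of the 3 contrasts 1 member had an unadjusted p under 0.05. So did 2217 of the 13887 genes in DMSO_siNT and 1338 in the difference between the 2 groups. A fit of VM libraries alone had only 2-3VM and 4-2VM as knockdown libraries, 1 for each siRNA. In it CDKN2B (-0.66), CDKN2A (-0.55, adjusted p = 0.0400) and CDKN1A (-0.39, adjusted p = 0.0127) were lower after knockdown and CDKN1C was higher (1.29 ± 0.29, adjusted p = 0.00639). CDKN1C in 4OHT_siSMARCA4 then stood level with DMSO_siNT (0.07 ± 0.32, adjusted p = 0.883). The share of all genes called in that fit is not given here.

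The genes for the kinases and cyclins that these inhibitors bind moved in both directions. Of 9 tested genes for CDKs and their D-, E- and A-type cyclins, 2 were higher and 3 lower in 4OHT_siNT than in DMSO_siNT. The shares of all genes were 23.9% and 28.9%. CCNA2, cyclin A of S phase, had a log2 difference of -4.44 ± 0.23 (30.9 ± 4.21 to 1.41 ± 0.352 CPM), CCNE2 of -4.10 ± 0.32 and CDK6 of -0.94 ± 0.16. The 2 higher genes were CCND2 (0.80 ± 0.30, adjusted p = 0.0329) and CCNE1 (0.54 ± 0.13, adjusted p = 0.00191). After knockdown 3 were higher and 2 lower, against 4.99% and 5.65% of all genes. CDK4, a kinase that INK4 proteins bind, was higher by 0.53 ± 0.11 (132 ± 11.2 to 190 ± 23.7 CPM, adjusted p = 0.00294), as were CCNE2 (1.35 ± 0.35, adjusted p = 0.0176) and CCNA2 (0.80 ± 0.24, adjusted p = 0.0415). CCND2, a D-type cyclin, fell by 1.49 ± 0.31 on the log2 scale (adjusted p = 0.00394) and CDK2 fell by 0.71 ± 0.16 (adjusted p = 0.00731). CCNA2 at 2.49 ± 0.994 CPM and CCNE2 at 0.982 ± 0.327 CPM stayed below DMSO_siNT (log2 -3.64 and -2.75). The median difference over these 9 genes was 0.06 with 4OHT and 0.09 with knockdown, against -0.05 and 0.01 over all genes.

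Downstream of the kinases, 9 genes of the RB family and its E2F partners were tested. In 4OHT_siNT 1 was higher and 3 lower, against 23.9% and 28.9% of all genes. None was called after knockdown with edgeR (1 had an unadjusted p under 0.05), where 4.99% of all genes were higher and 5.65% lower. RBL1 (p107), itself an E2F target, fell by 2.54 ± 0.21 on the log2 scale, E2F1 by 1.15 ± 0.14 and TFDP2 by 1.00 ± 0.20, while E2F4, a factor of repressive complexes, rose by 0.39 ± 0.11. RB1 differed by 0.12 with 4OHT (adjusted p = 0.645).

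Regulators of the members were counted from lists as well. Of 15 Polycomb proteins and other regulators of the CDKN2A-CDKN2B locus, 5 were higher and 4 lower in 4OHT_siNT. The shares of all genes were 23.9% and 28.9%. EZH2, the methyltransferase that silences the locus, fell by 1.24 ± 0.15 on the log2 scale and ID1, an inhibitor of ETS activation of CDKN2A, by 1.78 ± 0.38. KDM6B, which removes the Polycomb mark, rose by 1.83 ± 0.15 and ETS2, an activator of CDKN2A, by 1.27 ± 0.14. BMI1, itself a Polycomb protein, was called higher by 0.87 ± 0.35 (adjusted p = 0.0434), from 0.915 ± 0.484 to 1.74 ± 0.384 CPM. The remaining calls were ETS1 and JUNB, higher, and the Polycomb genes RNF2 and SUZ12, lower. After knockdown 3 were higher and none lower, against 4.99% and 5.65% of all genes. The 3 were ETS2 (0.63 ± 0.14, adjusted p = 0.00529), RNF2, a Polycomb ubiquitin ligase (0.46 ± 0.10, adjusted p = 0.00733), and SUZ12, a partner of EZH2 (0.37, adjusted p = 0.0420). An unadjusted p under 0.05 was found for 5 of the 15. EZH2 (-0.08, adjusted p = 0.813) and KDM6B (-0.35, adjusted p = 0.135) were not called.

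For p27, the product of CDKN1B, most regulation is known to act on the protein, which these counts do not measure. Of 7 tested genes of its turnover and transcription, 3 were lower in 4OHT_siNT and none higher, with no other unadjusted p under 0.05. Among all genes 28.9% were lower and 23.9% higher. SKP2, which targets p27 for destruction, fell by 1.43 ± 0.13 on the log2 scale, its cofactor CKS1B by 2.24 ± 0.35 and FOXO3, an activator of CDKN1B transcription, by 0.47 ± 0.15. With edgeR 0 of the 7 were called after knockdown (4.99% of all genes were higher and 5.65% lower), and 1 had an unadjusted p under 0.05.

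Genes beside the members did not all follow them. Of 9 tested neighbours, 4 were higher and 3 lower in 4OHT_siNT, against 23.9% and 28.9% of all genes. After knockdown 2 were higher and 1 lower, against 4.99% and 5.65%. MTAP, a methionine-salvage gene beyond the 3′ end of CDKN2A, rose with 4OHT (1.11 ± 0.08) and stood at 0.05 ± 0.08 after knockdown (adjusted p = 0.735), where CDKN2A and CDKN2B were lower. DMRTA1, beyond CDKN2B, rose with 4OHT (2.43 ± 0.35) and fell by 1.16 ± 0.31 on the log2 scale with knockdown (adjusted p = 0.0214), at 0.372 ± 0.259, 2.10 ± 0.563 and 0.950 ± 0.324 CPM in the 3 groups. In the imprinted cluster of CDKN1C, SLC22A18 was lower in 4OHT_siNT (-0.87 ± 0.15) and higher after knockdown (0.95 ± 0.15, adjusted p = 0.000453). Its levels were 19.4 ± 2.86, 10.6 ± 2.63 and 20.5 ± 2.14 CPM. PHLDA2 of the same cluster rose with 4OHT (1.03 ± 0.18) and was not called after knockdown (0.42 ± 0.18, adjusted p = 0.150). SRSF3, beside CDKN1A, moved opposite to it in both comparisons (-0.97 ± 0.12 and 0.47 ± 0.12, adjusted p = 0.0151).

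The genes whose log2 CPM followed each member most closely were found by Pearson's r over the 18 libraries, which mainly reflects the differences between the 3 groups. CDKN1A was followed by CACNA2D3 (r = 0.983), ENC1 (0.981) and DCSTAMP (0.980), and CDKN2B by ADGRE2 (0.991), ZNF438 (0.990) and WNT7B (0.987). CDKN2C was followed by the mitotic genes NUF2 (0.978) and KIF4A (0.975), with SSTR1 (0.978) between them, and CDKN1B by CAMK2D (0.984), DNAJB4 (0.983) and MAB21L2 (0.974). CDKN2A was followed by TUFM (0.961), PMPCA (0.925) and ZNF692 (0.915), CDKN1C by HCFC1R1 (0.931), FPGS (0.930) and ARL2 (0.930), and CDKN2D, which has the flattest levels, by RMDN3 (0.871), PTGES2 (0.851) and TOMM40 (0.850). RMDN3, like CDKN2D, differed little between groups, by log2 0.10 with 4OHT and -0.05 with knockdown. Above r = 0.9 lay 480 genes for CDKN2B and 380 for CDKN1A, but 7 for CDKN2A and none for CDKN2D. Between members, r was 0.951 for CDKN1A and CDKN2B and 0.764 for CDKN2A and CDKN2B.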

How the data were processed

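The authors deposited un-normalized gene counts, with 1 column for each lane of a library; the submitters' processing notes name STAR 2.7.8a, DESeq2 1.36.0 and hg38. The counting program and its strand setting are not given in the sources used here. Poly(A) libraries were made with a directional kit. The 2 lanes of each of 18 libraries were summed; 17 matched a sample title, and the other carried its group name with a set that no title with that siRNA has. The remaining titles of 29 were not analysed here. Genes were filtered with filterByExpr (minimum count 10), scaled by TMM and compared by edgeR 4.0.16 (glmQLFit and glmQLFTest, R 4.3.3) in a joint fit of the 3 groups, with Benjamini-Hochberg adjustment over all genes tested. The filter kept 99.9% of counts. The script was tested on simulated counts. DESeq2 1.42.0, other scalings, filters, blocks, siRNA subsets and leave-one-out fits served as alternatives. Lengths came from GENCODE v44. Members and lists were chosen with earlier results of these data known; genes in lists were named by the largest called changes or as a sentence needed them. 1 further list of regulators is not reported here.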

Additional observations from a re-analysis of the deposited data

Results flagged for a closer look

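In a group of 6 libraries, a value was marked when its gap to the nearest other, divided by the range of the group on the log2 scale, exceeded the critical value of Dixon's test, which chance alone gives in about 1 of 20 groups. Among 21 sets (7 genes in 3 groups) 4 were marked. In DMSO_siNT library 4-2V was lowest for CDKN1A (702 CPM, gap 0.684) and highest for CDKN1C (32.3 CPM, gap 0.687), and library 2-2V was highest for CDKN2C (14.5 CPM, gap 0.652). In 4OHT_siNT library 2-3VM was lowest for CDKN1C (0.813 CPM, gap 0.716). Library 4-2V also had the lowest ESR1 and HRAS of its group, and the part of this in the CDKN1A and CDKN1C values was not tested. In 4OHT_siSMARCA4, library 4-3V stood apart in HRAS, at 3231 CPM against 4242 to 4848 in the others (gap 0.671). It was also the lowest of its group for CDKN1C, CDKN2A, CDKN2C and CDKN2D, and the part of HRAS in this was not tested.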

How the results depend on the processing

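The 6 calls of 4OHT_siNT against DMSO_siNT held in all fits that left out 1 library, and between 5 and 6 members were called in 4OHT_siSMARCA4 against DMSO_siNT. For 4OHT_siSMARCA4 against 4OHT_siNT the 3 calls became 1 at an adjusted p under 0.01, and 1 to 4 when single libraries were left out (1 without the library of siSMARCA4_2 that matches no title). Same-set libraries of different groups deviated together about as often as others (r above 0.1 in 5 of 15 pairs, median 0.04, against 26 of 81 pairs). These pairs share libraries, and DMSO_siNT 4-2V enters the group mean that deviations are taken from. The check therefore cannot exclude that sets pair the samples. As a replicate block, the set label left 0 members called in that comparison, with CDKN2B at -0.64 (adjusted p = 0.0664), CDKN2A at -0.64 (0.308) and CDKN1A at -0.30 (0.516), and the set number 1. Between siNT 2 and siNT 4 in DMSO, DESeq2 called 2 members (15.7% of genes) in place of 0, and leaving out single libraries gave 0 to 2 (2 without 4-2VM, 1 without 4-3VM). For the 4OHT response with siNT 2 minus that with siNT 4, DESeq2 called 1 (5.9% of genes) and leaving out libraries gave 0 to 1 (1 without DMSO_siNT 4-2VM). Shares of all genes called in the fits with libraries left out are not given here. With canonical transcript lengths the share of CDKN1A in the summed level was 80.7%, 81.5% and 83.4% in DMSO_siNT, 4OHT_siNT and 4OHT_siSMARCA4. Signs turned, without a call, as follows on the log2 scale. For 4OHT_siSMARCA4 against 4OHT_siNT, CDKN2D was at 0.20 (set label block), 0.11 (VM sets), 0.0442 (siNT 4 alone) and 0.10 (siSMARCA4_4 against siNT 4), CDKN2C at 0.18 (VM sets), 0.13 (VM sets with the unmatched library) and 0.0659 (siSMARCA4_2 against siNT 2), and CDKN1B at -0.15 (siNT 2 alone) and -0.14 (siSMARCA4_2 against siNT 2). Leaving out single libraries gave -0.0214 to 0.11 for CDKN1B and -0.17 to 0.0518 for CDKN2D. CDKN2D in 4OHT_siNT against DMSO_siNT was at -0.0063 in VM sets and -0.0084 with the unmatched library, and in 4OHT_siSMARCA4 against DMSO_siNT at -0.0137 in the latter. CDKN1C in 4OHT_siSMARCA4 against DMSO_siNT, called lower with all libraries, was at 0.07 in VM sets and 0.0239 with the unmatched library. CDKN1A in the knockdown comparison missed the threshold when every gene with any count was tested (adjusted p = 0.0845). The fits with the unmatched library among VM sets, matched siRNA pairs, 2 groups with libraries left out and V against VM without 4-2V were chosen after seeing the data. The cause of these changes was not tested. Low counts limit CDKN2C and CDKN1C in the 4OHT groups.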
